A study of Equus caballus with 21 samples.

Results

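SPP1 encodes osteopontin, a secreted acidic phosphoglycoprotein, and was followed as a single gene (Entrez gene ID 100053029), 1 of the 24942 gene IDs counted. It was chosen as a named gene, with earlier results of these data known, and read in all 21 libraries of laser-captured horse endometrium. Osteopontin carries an arginine-glycine-aspartate motif through which it binds integrins on the cell surface, and it also binds CD44. In the uterus of sheep it is a known product of the endometrial glands under progesterone, secreted into the fluid that nourishes the conceptus. In pigs the conceptus's estrogens are known to switch it on in the luminal epithelium.

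The libraries came from warmblood mares on day 12 of pregnancy or on day 12 of the estrous cycle. All mares received a single injection of 1500 IU of human chorionic gonadotropin to induce ovulation, and only those of the pregnant group were inseminated. Stroma, glandular epithelium and luminal epithelium were cut from frozen biopsy sections, and each library began with 1 ng of total RNA. There were 2 pregnant and 2 cyclic stromal, 4 pregnant and 4 cyclic glandular, and 4 pregnant and 5 cyclic luminal libraries. The letters B, C, J, M and U name the mares. Both epithelia in both states came from mares B, C, M and U, mare J gave a cyclic luminal library alone, and stroma came from pregnant M and U and from cyclic B and M. A captured area is small and can hold other cells, and in such samples fewer cells of a type and less RNA per cell cannot be told apart.

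A library held 136259 to 1467510 counts and 4072 to 11798 detected genes. The labels of the compartments were checked against lists of marker genes. All 7 matched epithelial markers had counts in each of the 4 epithelial groups, and their summed level was 67 to 561 CPM in the stromal libraries and 474 to 15180 CPM in the epithelial ones. The 8 fibroblast markers summed to 4043 to 10860 CPM in stroma and to 256 to 4530 CPM in epithelium, with the highest epithelial value in pregnant luminal M. These lists do not tell gland from lumen. The 6 ciliated cell markers summed to 260 to 1685 CPM in pregnant and 733 to 1823 CPM in cyclic lumen. In glands they summed to 34.5 to 534 CPM in pregnant and 43.5 to 522 CPM in cyclic libraries, so the pregnant ranges overlapped. Pregnant luminal M and cyclic glandular M, with 136259 and 222623 counts, are the libraries that the smaller deposited table leaves out.

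SPP1 was a transcript of the glands. In glandular epithelium it stood at 940, 1383, 739 and 1300 CPM in pregnant B, C, M and U, and at 1900, 544, 14850 and 2043 CPM in cyclic B, C, M and U. These values rest on 344 to 2400 SPP1 counts per library. In luminal epithelium SPP1 stood at 10.4, 19.2, 31.2 and 18.3 CPM in pregnant B, C, M and U, and at 14.8, 36.5, 124, 31.6 and 25.1 CPM in cyclic B, C, J, M and U. The 9 luminal libraries held only 4 to 65 SPP1 counts each. The lowest glandular library therefore lay above the highest luminal one in either state, and no value overlapped.

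**Figure D1:**
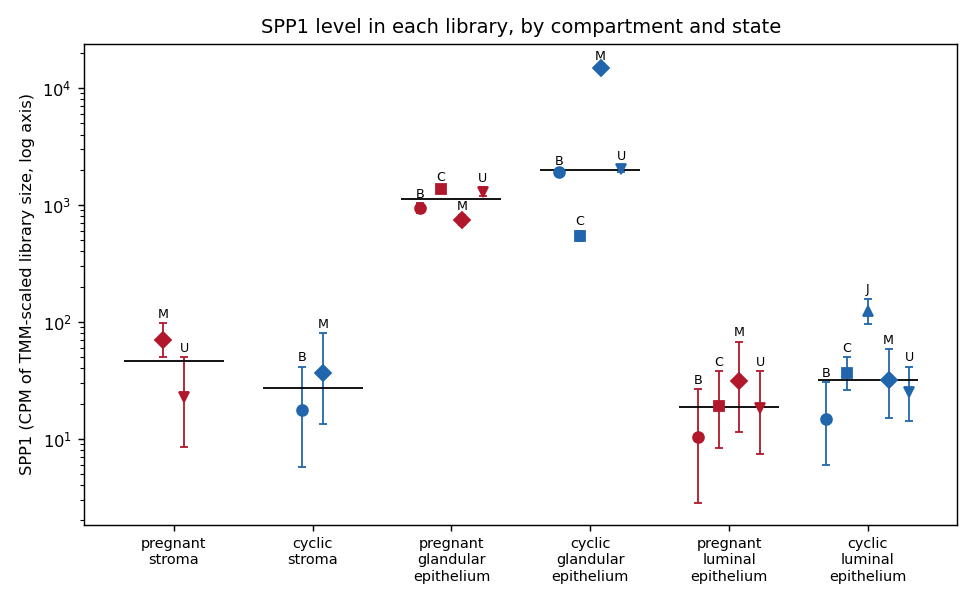
SPP1 level in each of the 21 libraries (CPM of the TMM-scaled library size, log axis) by compartment and state. Letters name the mares, horizontal lines are group medians, and bars are exact 95% Poisson intervals of the count. All 8 glandular libraries lie between 544 and 14850 CPM, and all stromal and luminal libraries lie between 10.4 and 124 CPM.

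Within each biopsy that gave both epithelia, SPP1 was higher in the glands than in the lumen. The ratio of glandular to luminal CPM was above 1 in 8 of 8 biopsies, with a median of 76.7. In pregnancy it was 90.4 in mare B, 72.1 in C, 23.7 in M and 70.9 in U. In the cycle it was 128.5 in mare B, 14.9 in C, 470 in M and 81.3 in U. The exact (Clopper-Pearson) 95% counting interval excluded 1 in every biopsy, the lowest bound being 10.7 in cyclic C. The smallest ratios belonged to pregnant M and cyclic C, so no mare was lowest in both states.

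SPP1 was higher in glandular than in luminal epithelium by a log2 fold change of 6.30 ± 0.49 (SE) when counts were summed per mare over both states (4 mares; edgeR adjusted p = 4.35e-34). The higher direction was called for 3.65% of the 7174 genes tested, and the median log2 fold change of all genes was 0.25. SPP1 ranked 2 by p and 20 by fold change among them. In these sums the deeper library of a mare weighs more. In mares C, M and U the deeper glandular library was pregnant and the deeper luminal one cyclic. In mare C they held 1467510 and 1382614 counts, against 600512 in its cyclic glandular and 375564 in its pregnant luminal library. In mare B the deeper glandular library was cyclic and the deeper luminal one pregnant. In pregnancy alone, where SPP1 ranked 11 by p and 71 by fold change, the difference between glands and lumen was 5.78 ± 0.97 (edgeR adjusted p = 1.06e-06; 1.73% of 3988 genes called higher). In the cycle alone it was 6.50 ± 0.78 (edgeR adjusted p = 3.69e-13; 1.41% of 4600 genes called higher), and SPP1 had the smallest p of all genes there. With 4 mares an exact sign-change test cannot go below p = 0.125, and SPP1 gave 0.125 in pregnancy, in the cycle and over both (two-sided; adjusted p = 0.333 over 8 tests). The pregnant difference did not pass with limma-voom (adjusted p = 0.607) or with limma on the deposited values (adjusted p = 0.105), and the cyclic one did not pass with limma on the deposited values (adjusted p = 0.169), while the log2 differences there stayed between 5.71 and 6.47.

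**Figure D2:**
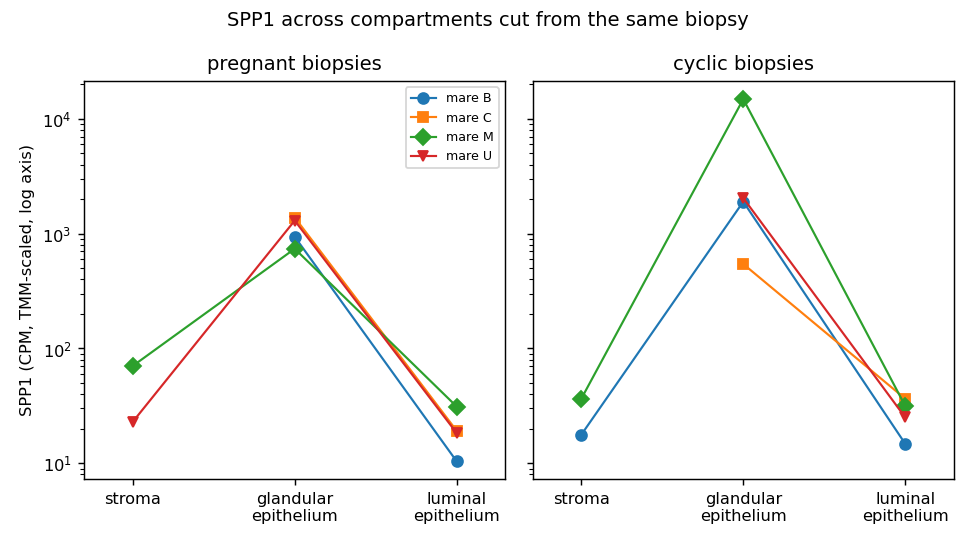
SPP1 (CPM, TMM-scaled, log axis) in the compartments cut from the same biopsy, pregnant biopsies on the left and cyclic ones on the right. Each line joins the libraries of 1 mare. Every line peaks at the glandular epithelium, and the steepest belongs to cyclic mare M, with 14850 CPM in glands and 31.6 CPM in lumen.

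In stroma SPP1 stood at 70.5 and 23.0 CPM in pregnant M and U, and at 17.7 and 36.5 CPM in cyclic B and M. These 4 libraries held 37, 6, 5 and 6 SPP1 counts, so counting error was wide in all but pregnant M. The pregnant M level in turn depended on the scaling, at 31.5 CPM without TMM scaling and 95.7 CPM without ribosomal RNA genes, and RN18S, the 18S ribosomal RNA, took 66.2% of that library. The stromal to glandular ratio within the biopsy was 0.0953 in pregnant M, 0.0177 in pregnant U, 0.00934 in cyclic B and 0.00246 in cyclic M. SPP1 was lower in stroma than in glandular epithelium by a log2 fold change of -6.04 ± 1.06 (3 mares; edgeR adjusted p = 6.89e-05; 0.518% of 4830 genes called lower and 1.3% in either direction), with the smallest p of all genes. That call was lost without mare B (-5.64, edgeR adjusted p = 0.0938) and without mare M (-6.18, edgeR adjusted p = 0.061), when 2 mares were left. By fold change SPP1 ranked 108 from the lowest with all 3 mares, where the median of all genes was -1.07.

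Between stroma and luminal epithelium the levels lay within the same range. The stromal value was above the luminal one in 4 of 4 biopsies, by ratios of 1.16 to 2.26, but the counting interval included 1 in all 4, and without TMM scaling pregnant M turned to 0.715. The log2 fold change was 0.63 ± 2.31 (edgeR adjusted p = 0.97; 1.74% of 3512 genes called in either direction), and 2 SE either way reach from -4.00 to 5.25, so neither a large difference nor its absence was detectable at this depth. By median the order ran from cyclic glandular (1972 CPM) over pregnant glandular (1120 CPM) and pregnant stroma (46.7 CPM) to cyclic lumen (31.6 CPM), cyclic stroma (27.1 CPM) and pregnant lumen (18.8 CPM). Only the step from the glandular groups to the others exceeded the spread, and each other pair of neighbours overlapped. Without TMM scaling the order of the 4 lower groups changed, with cyclic stroma (32 CPM) above pregnant stroma (30.6 CPM).

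The low luminal and stromal SPP1 was set beside that of other gland transcripts. P19, which encodes uterocalin, a lipid carrier secreted by equine uterine glands, had glandular to luminal ratios of 2.42 to 44 with a median of 17.9. SCGB1A1, which encodes uteroglobin, a small secreted protein, had ratios of 5.71 to 1190 with a median of 13.1. The highest, in cyclic M, rests on 1 luminal count. Its counting interval of 213 to 47090 overlaps that of SPP1 in the same biopsy, 255 to 982. The ratio of SPP1, with a median of 76.7, was above that of P19 in 6 of 8 biopsies and above that of SCGB1A1 in 7 of 8. The exceptions for P19 were pregnant M (23.7 for SPP1 and 44 for P19) and cyclic C (14.9 for SPP1 and 16 for P19), while the SCGB1A1 ratio was the higher in cyclic M. The counting intervals overlapped in each of these exceptions. They also overlapped in pregnant B, where SPP1 was above P19 (35 to 333 and 34.1 to 40.5). For SCGB1A1 they overlapped in cyclic C (10.7 to 21.2 for SPP1 and 9.99 to 15.7) and in pregnant M (10.8 to 65 for SPP1 and 8.2 to 78.7), where SPP1 was higher. In stroma of pregnant M, where TMM-scaled SPP1 was highest, P19 stood at 5544 CPM, against 827 to 1718 CPM in the other 3 stromal libraries. SCGB1A1 went another way, at 109 CPM in stroma of pregnant M and 256 CPM in that of cyclic B, where SPP1 was 17.7 CPM. The summed epithelial markers were likewise lower in stroma of pregnant M (213 CPM) than in that of cyclic B (561 CPM). Without TMM scaling the highest stromal SPP1 was that of cyclic M, at 43.3 CPM, with 31.5 CPM in pregnant M. The part of captured gland RNA in these levels was not tested.

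Whether SPP1 differed with pregnancy was asked within each compartment. In the glands the pregnant libraries averaged 1091 ± 303 CPM (SD, n = 4), against 4835 ± 6713 CPM in cyclic glands (n = 4). The highest pregnant value was 1.87 times the lowest, and the highest cyclic value 27.3 times the lowest. All 4 pregnant values lay inside the cyclic range. Without TMM scaling the pregnant glands averaged 1005 ± 482 CPM, the highest was 3.36 times the lowest, and pregnant M (487 CPM) fell below the lowest cyclic value (573 CPM). Within mares, SPP1 in pregnant glands was 0.0498 times the cyclic value in mare M, 0.495 times in B and 0.637 times in U, but 2.54 times in C. The counting intervals excluded 1 in all 4 mares, so 3 mares were lower in pregnancy and 1 was higher by more than counting error. The split of 3 and 1 was the same without TMM scaling and without ribosomal RNA genes.

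The pregnancy difference in glands did not pass: its log2 fold change was -2.08 ± 0.77 (edgeR adjusted p = 0.359; 0.0623% of 4816 genes called in either direction, 350 of them at an unadjusted p under 0.05). An exact permutation test of the log2 levels gave p = 0.314 (two-sided; adjusted p = 0.359 over 8 tests; the smallest possible p was 0.0286). Without cyclic M the log2 fold change was -0.45 ± 0.53 (edgeR adjusted p = 1), and with the mare as a block it was -1.00 ± 0.86 (edgeR adjusted p = 1).

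**Figure D3:**
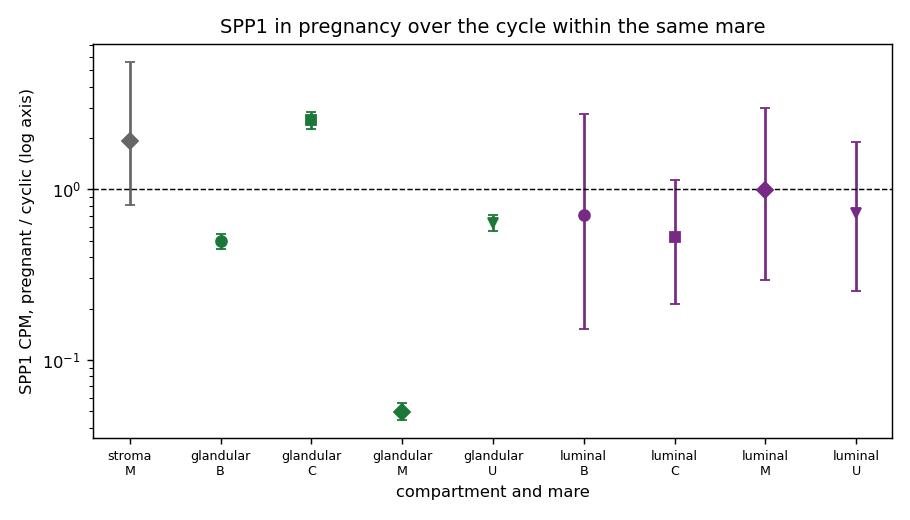
Ratio of SPP1 CPM in pregnancy to the cycle within the same mare (log axis, dashed line at 1), by compartment. Bars are exact 95% counting intervals. In the glands the ratio lies below 1 in mares B, M and U and at 2.54 in mare C, and in the lumen all 4 intervals include 1.

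The cyclic glandular library of mare M stood 7.27-fold above the next cyclic library. It rests on 2165 SPP1 counts, while 3 counts are 20.6 CPM in cyclic M and 2.51 to 6.35 CPM in the other cyclic glandular libraries. Of 9252 genes of any level with a count in those others, 4.58% stood at least as far out in cyclic M. The share was not matched for level, and SPP1 was one of these 424 genes. EPCAM, an adhesion molecule of epithelial cells, was another, at 14940 CPM in cyclic M against 1197 to 1541 CPM in the other 3. KRT18, a keratin, went the other way, at 6.86 CPM in cyclic M against 148 to 311 CPM, and P19 was at 10700 CPM against 19060 to 40360 CPM. RN18S took 0.293% of the counts of that library and 8.29% to 31% of the others. The part of these differences in the SPP1 level of that library was not tested. Divided by the summed epithelial markers, a ratio chosen after its values were seen, SPP1 was 0.542, 0.726, 0.738 and 0.771 in pregnant glands B, C, M and U. It was 1.16, 0.317, 0.978 and 1.1 in cyclic glands B, C, M and U. The pregnant values lay inside the cyclic range. EPCAM made up 14940 of the summed 15180 CPM in cyclic M, so the ratio there is close to one of SPP1 to EPCAM alone.

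**Figure D4:**
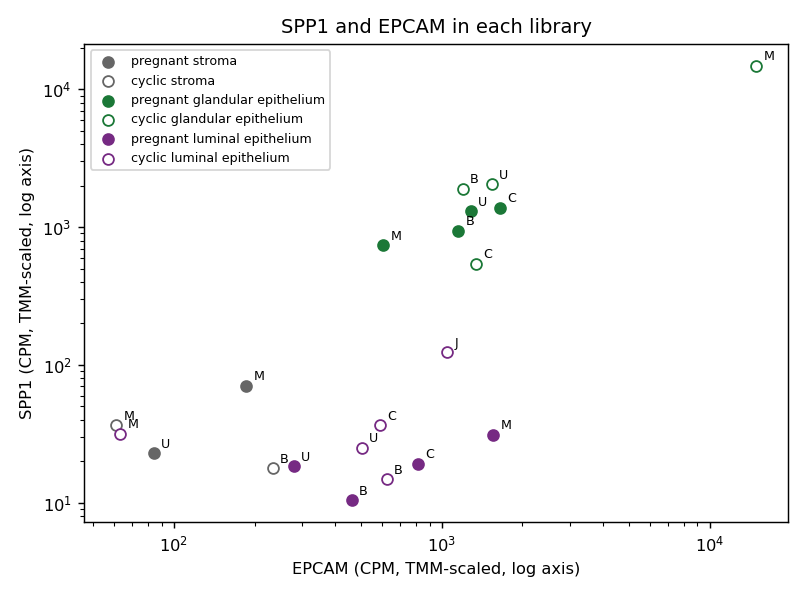
SPP1 against EPCAM in each of the 21 libraries (CPM, TMM-scaled, both axes log), with pregnant libraries filled and cyclic ones open. Cyclic glandular M is high in both genes, whereas luminal libraries with EPCAM at up to 1555 CPM have SPP1 at 124 CPM or less.

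SPP1 in the lumen averaged 19.8 ± 8.58 CPM in pregnant (n = 4) and 46.3 ± 44 CPM in cyclic libraries (n = 5). It was lower in pregnancy in 4 of 4 mares, with ratios of 0.703 in B, 0.526 in C, 0.988 in M and 0.73 in U, and every counting interval included 1. Mare M turned to 1.43 without TMM scaling and to 1.11 without ribosomal RNA genes, so the direction held in 3 of 4 mares. The log2 fold change was -1.28 ± 1.63 (edgeR adjusted p = 0.973; 0.437% of 4344 genes called in either direction), and the exact permutation test gave p = 0.198 (adjusted p = 0.333). The highest cyclic value, 124 CPM, came from mare J, which has no pregnant library. That library also held the highest luminal SCGB1A1, at 154 CPM against 3.16 to 87.1 CPM in the other cyclic luminal libraries. P19 was not highest there, at 4328 CPM against 4426 CPM in cyclic luminal M, where SPP1 was 31.6 CPM and SCGB1A1 3.16 CPM. The 14 macrophage and dendritic cell markers, whose cells can also make osteopontin, summed to 574 CPM in mare J. That is inside the range of 104 to 622 CPM of the other 4. The same list summed to 15.3 to 99.1 CPM in pregnant and 20.6 to 60.1 CPM in cyclic glands, with 11 and 13 of the 14 markers detected. The part of these cells in the level of mare J was not tested.

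Stromal SPP1 averaged 46.7 ± 33.6 CPM in pregnant and 27.1 ± 13.3 CPM in cyclic libraries (n = 2 for each state). The counts were too low for the filter, so SPP1 did not enter the stromal edgeR test (0% of 2212 genes called, 88 at an unadjusted p under 0.05), and the exact test cannot go below p = 0.333 with these numbers (SPP1 gave p = 0.667). In mare M, the only one with both states, the ratio of pregnancy to the cycle was 1.93 with a counting interval of 0.807 to 5.59, and it was 0.726 without TMM scaling. The stromal direction thus turned with the scaling. The difference of the pregnancy effects, glandular minus luminal, was -0.67 ± 1.02 log2 units in 16 libraries (edgeR adjusted p = 0.946; 0.0145% of 6884 genes called), and without mare M it was 0.46 ± 0.97. A different response of the 2 epithelia was therefore not shown.

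The cell-surface partners of osteopontin were read in the same comparison of the epithelia. Of 11 integrin subunits that bind osteopontin and CD44, 6 could be tested, 0 were called higher and 1 lower in glands. Over all 7174 genes 3.65% were called higher and 6.94% in either direction, and 0 or 1 call in a list this short is near that background, here and in the lists that follow. The one called was ITGB8, which pairs with the alpha v subunit, at 133 ± 67.7 CPM in pregnant and 75.3 ± 25.9 CPM in cyclic glands, against 288 ± 140 CPM in pregnant and 492 ± 428 CPM in cyclic lumen (log2 fold change -1.99 ± 0.57; edgeR adjusted p = 0.00984). Its call ended without mare M (-1.27, edgeR adjusted p = 0.209) and without mare B (-1.87, edgeR adjusted p = 0.192). It was also lost with limma-voom (adjusted p = 0.0853) and with limma on the deposited values (adjusted p = 0.057). In neither state alone did ITGB8 pass (edgeR adjusted p = 0.775 in pregnancy and 0.118 in the cycle). ITGAV, the alpha v subunit itself, had a log2 fold change of 1.18 ± 0.56 (edgeR adjusted p = 0.275), and ITGB1, the common beta 1 subunit, -0.77 ± 0.48 (edgeR adjusted p = 0.504). ITGB5, a beta partner of alpha v, stood at -0.82 ± 1.40, and CD44, named for its role after its value was seen, at -3.42 ± 2.16 (edgeR adjusted p = 0.507). In the cycle CD44 ran from 0 to 473 CPM in glands (median 0.836) and from 0 to 71.8 CPM in lumen (median 53.7). In pregnancy it ran from 0 to 2.3 CPM in glands and from 0 to 36.4 CPM in lumen. The median of the 6 tested was -0.79, beside 0.25 for all genes. ITGB3, another beta partner of alpha v and likewise named after its values were seen, had 24 counts in 1 pregnant luminal library, 1 count in 1 cyclic luminal library and 0 in the others. For pregnancy 5 were tested in lumen and 4 in glands, and 0 were called.

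No other member of the osteopontin family was detected. IBSP, DMP1, DSPP and MEPE, which encode the other small integrin-binding proteins of bone and tooth matrix, had 0 counts in the 21 libraries. PKD2, the neighbour of SPP1 in the horse reference used for names, had a log2 fold change of -0.83 ± 1.27 between the epithelia. SPARCL1, a matricellular protein gene tested with them, was higher in stroma than in glands by 3.40 ± 0.97 (edgeR adjusted p = 0.0379) and did not pass between the epithelia (0.20 ± 0.62).

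Among 13 enzymes that cut or modify osteopontin or remove its phosphate, 7 had a count and 3 could be tested between the epithelia, with 0 called (6.94% of all genes). These were CTSB, a lysosomal protease (-1.58 ± 0.62; edgeR adjusted p = 0.123), MMP2, a matrix protease (-1.85 ± 0.76; edgeR adjusted p = 0.144), and ACP5, an acid phosphatase (-1.03 ± 0.57; edgeR adjusted p = 0.394). MMP2 was higher in stroma than in glands by 4.18 ± 1.15 (edgeR adjusted p = 0.0291). FAM20A, a pseudokinase that activates the kinase FAM20C, could not be tested there. It had 106 counts in the pregnant stromal libraries, of which 105 came from 1 library, and 97 in pregnant lumen.

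Of 14 other adhesive matrix proteins, 5 were tested between the epithelia and 1 was called, against 6.94% of all genes. CCN2, a matricellular protein, was lower in glands by a log2 fold change of -4.31 ± 0.53 (edgeR adjusted p = 9.18e-14), with 24.2 ± 16.4 CPM in pregnant and 64.5 ± 37 CPM in cyclic glands, against 263 ± 147 CPM in pregnant and 1036 ± 371 CPM in cyclic lumen. FN1, fibronectin, had 2.04 ± 1.09 (edgeR adjusted p = 0.369), SPARC, a collagen-binding protein, -2.20 ± 0.78 (edgeR adjusted p = 0.0605), and LAMA5, a laminin chain of basement membranes, -1.46 ± 0.78 (edgeR adjusted p = 0.368). Of 14 genes of focal adhesions, the complexes that integrins build inside the cell, 12 were tested and 0 called, against 6.94% of all genes, with a median of -0.53. PTK2, focal adhesion kinase, stood at -0.59 ± 0.61 and TLN1, talin, at -0.70 ± 0.66. FERMT2, kindlin-2, stood at 1.45 ± 0.93 and ACTN1, an actinin that cross-links actin, at -0.78 ± 0.71.

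Of 16 transcription factors and receptors linked to SPP1 transcription in other species, 8 were tested between the epithelia and 1 was called higher in glands, against 3.65% of all genes. It was ESR1, the estrogen receptor, with 249 ± 155 CPM in pregnant and 276 ± 238 CPM in cyclic glands, against 61.4 ± 86.4 CPM in pregnant and 69.1 ± 66.3 CPM in cyclic lumen (2.20 ± 0.68; edgeR adjusted p = 0.0224). That call ended when any one of the 4 mares was left out (edgeR adjusted p = 0.0627 to 0.12), at log2 fold changes of 2.60 without B, 2.59 without C, 2.26 without U and 1.55 without M. With these, ESR1 lost its call in 9 of the alternatives described below. It passed in neither state alone (edgeR adjusted p = 0.492 in pregnancy and 0.531 in the cycle). PGR, the progesterone receptor, named after its value was seen, had 2.90 ± 1.49 (edgeR adjusted p = 0.337). HIF1A, a factor of the response to low oxygen, had 0.12 ± 0.62. SMAD3 and SMAD4, which carry transforming growth factor beta signals, had -1.15 ± 1.09 and 0.70 ± 0.84. For pregnancy, 0 genes of these 6 lists passed in any compartment, where 0.437% of all genes were called in lumen, 0.0623% in glands and 0% in stroma.

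**Figure D5:**
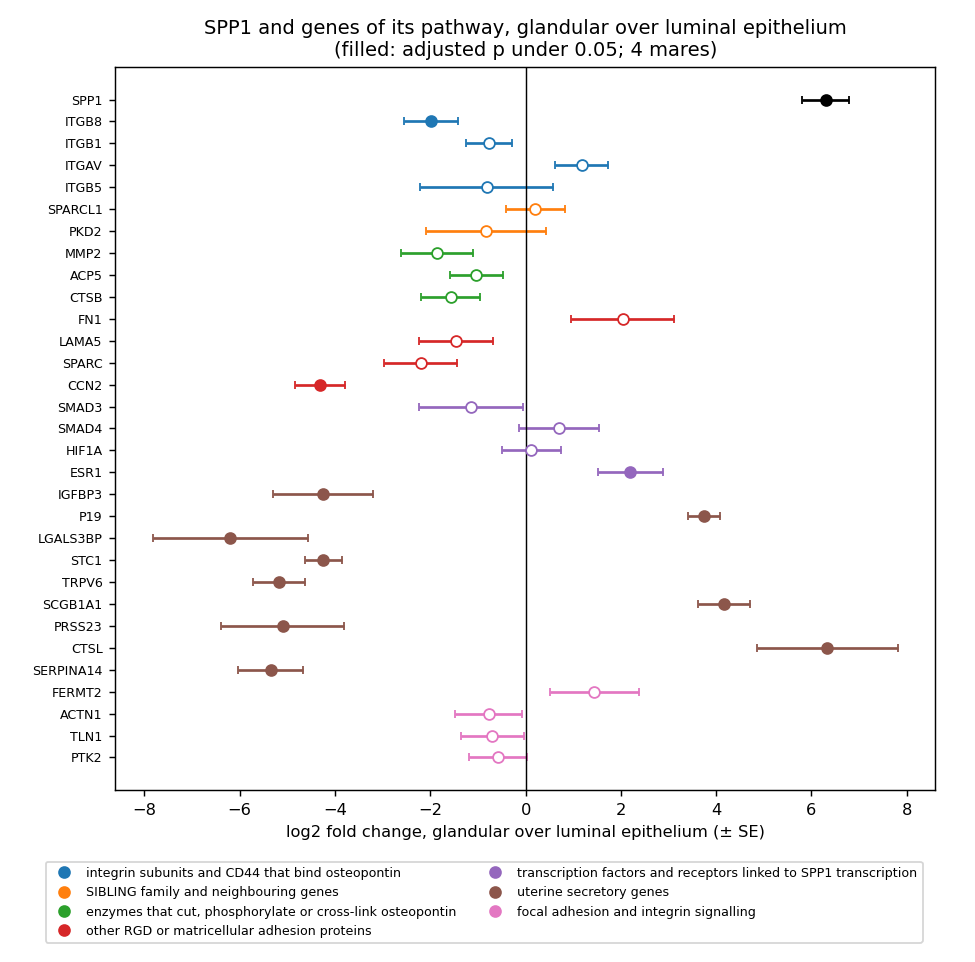
Log2 fold change, glandular over luminal epithelium, of SPP1 and of named genes of its pathway (points, with bars of 1 SE; counts summed per mare, 4 mares). Filled points have an edgeR adjusted p under 0.05. SPP1 stands at 6.30, the plotted integrin, enzyme, matrix, transcription and focal adhesion genes lie between -4.31 and 2.20, and the uterine secretory genes spread to both sides. CTSL had 8 luminal counts in all, and LGALS3BP had 6 counts in pregnant and 1 in cyclic glands, so neither fitted value is a measured fold.

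A last list held genes known from uterine secretion and transport. Of 14 listed, 11 were tested between the epithelia, 3 were higher and 6 lower in glands, against 6.94% of all genes, but the list was drawn with these differences already known. SCGB1A1 (4.16 ± 0.54) and P19 (3.74 ± 0.33) were higher like SPP1, with edgeR adjusted p of 2.96e-12 and 2.74e-26. CTSL, a lysosomal protease gene, was the third, at 118 ± 121 CPM in pregnant and 107 ± 43.9 CPM in cyclic glands, against 0 counts in pregnant and 1.91 ± 2.85 CPM in cyclic lumen. STC1, a secreted glycoprotein hormone (-4.24 ± 0.39), and TRPV6, a calcium channel (-5.18 ± 0.54), were lower in glands, with edgeR adjusted p of 7.48e-25 and 6.84e-19. SERPINA14, a uterine serpin, was lower too (-5.35 ± 0.68; edgeR adjusted p = 1.29e-12), as were PRSS23, IGFBP3 and LGALS3BP (-4.26 to -6.20). Over both states PRSS23 lost its call in 3 of the alternatives described below, and IGFBP3 and LGALS3BP in 2 each. LGALS3BP had 6 counts in pregnant and 1 in cyclic glands, so its fitted value is no measured fold. For pregnancy, FGF9, a growth factor, was the one member that passed, in lumen (3.90 ± 0.95; edgeR adjusted p = 0.0214). Its level ran from 5.2 to 1019 CPM in pregnant and from 3.16 to 71.8 CPM in cyclic lumen, so the ranges overlapped.

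The genes whose levels followed SPP1 most closely across the 21 libraries were RHOBTB1, CTTNBP2, DPYSL3, SLC39A8, RNF128, FERMT1, NEBL and F5, with Spearman's rho of 0.861 to 0.896 among 8908 genes with a symbol. The libraries share mares, compartments and depth, so rho is a description with no p. The choice depended on the measure: by Pearson correlation RHOBTB1, DPYSL3 and NEBL were not in the top 8. With 19 libraries FERMT1 and NEBL were not in the top 8 by Spearman's rho. CTTNBP2, a cytoskeleton-associated protein gene, averaged 3469 ± 882 CPM in pregnant and 3772 ± 2970 CPM in cyclic glands, against 113 ± 72.5 CPM in pregnant and 190 ± 119 CPM in cyclic lumen. SLC39A8, a zinc importer, stood at 1502 CPM in cyclic glandular M against a cyclic glandular mean of 460 ± 695 CPM, and its log2 fold change for pregnancy in glands was -2.67 ± 0.99 (edgeR adjusted p = 0.359). F5, coagulation factor V, averaged 2665 ± 1103 CPM in pregnant and 1873 ± 513 CPM in cyclic glands, with 1441 CPM in cyclic M. FERMT1, kindlin-1, an activator of integrins, averaged 264 ± 182 CPM in pregnant and 485 ± 419 CPM in cyclic glands, against 3.91 ± 4.98 CPM in pregnant and 28.3 ± 25.1 CPM in cyclic lumen. In the test between the epithelia all 8 were higher in glands, which the choice by likeness to SPP1 brings about.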

How the data were processed

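The authors deposited a table of whole-number read counts per Entrez gene ID for 21 libraries, and tables of normalized signal (CPM) for all 21 and for 19 of them, which equal the deposited counts divided by a constant of each library. Per the submitters' processing notes, Trimmomatic 0.32.2 and HISAT2 2.0.3 were among the tools. The read counter and the build were not given in the sources used here, so no coordinates are printed. Symbols for 21420 of 24942 IDs came from a RefSeq gene table.

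Tests used edgeR 4.0.16 in R 4.3.3: quasi-likelihood, TMM scaling, genes kept by filterByExpr (minimum count 10, total 15), Benjamini-Hochberg adjustment over all genes kept and a threshold of 0.05. The SE is the log2 fold change divided by the square root of F. Levels are CPM of the TMM-scaled library size, and exact permutation tests used log2(CPM + 1). Compartments were compared with the mare as a block, on counts summed per mare for both states together. The deeper library of a mare thus weighs more, and the states do not enter these sums equally. Because stromal SPP1 fell under the filter, its pregnancy difference is one of mean log2 levels. Scripts were tested on simulated data.

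The labels give each mare 1 letter, so the same letter was taken as the same animal. Deviations of same-lettered libraries from their group means correlated by 0.0156 to 0.0535 in lumen and by -0.0106 to 0.0449 in glands. These low values show no likeness by mare, so the pairing rests on the labels alone. Libraries of 1 group correlated by 0.374 to 0.693, so none was a duplicate. The labels name 5 mares and the design text 6. The exact tests take their spread from the SPP1 levels alone, while the edgeR p-values also borrow it from other genes. The main pregnancy tests within a compartment had no mare term, so libraries of the same mare entered as independent. The difference of pregnancy effects was blocked by biopsy. The edgeR p-values therefore do not measure the spread of SPP1 between these mares alone. Intervals (95%) cover counting error alone, since reads amplified from 1 ng of RNA carry no molecular identifiers.

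SPP1, the lists and the markers were chosen with earlier results of these data known. Of each list, members past the threshold in any comparison and the 4 of highest mean level were named, and the 8 genes of highest Spearman correlation with SPP1. Other names are said to have been added after their values were seen. Alternatives were other scaling, filters, tools (limma 3.58.1, DESeq2 1.42.0), the block, 19 libraries, and leaving out each library or mare.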

Additional observations from a re-analysis of the deposited data

Results flagged for a closer look

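In 4 groups of 4 or 5 libraries, the gap between the highest SPP1 level and the next was set against the range of the group. The gaps were taken on CPM and not on log2 levels. The critical values assume normally distributed values, which was not tested here, so no chance rate is attached to a pass. SPP1 in cyclic glandular epithelium of mare M was 14850 CPM, with a gap of 0.895 of the range of the 4 libraries, above the critical 0.829, but 0.77 without TMM scaling and 0.766 without ribosomal RNA genes, both below it. SPP1 in cyclic luminal epithelium of mare J was 123.6 CPM, with a gap of 0.801 of the range of the 5 libraries, above the critical 0.71. That luminal library stood 3.39-fold above the next for SPP1, and 4.51% of 9606 genes, of any level, stood at least as far out there.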

How the results depend on the processing

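The difference between glands and lumen over both states kept its call in 13 of 13 alternatives, at log2 fold changes of 6.12 to 6.70. The pregnant difference lost its call with limma-voom (5.71) and with limma on the deposited values (5.77), the cyclic one with limma on the deposited values (6.47), and the stromal to glandular one with limma on the deposited values (-6.15). Leaving out 1 mare gave the stromal to glandular difference a range of -6.18 to -5.64. The difference of pregnancy effects was 0.46 with 19 libraries, and ranged from -1.63 to 0.46 when a mare was left out. The stromal pregnancy difference, 0.64, ranged from -0.15 without pregnant M to 1.43 without pregnant U. The cause was not tested. Pregnancy in glands was negative and not called in 18 of 18 alternatives (-2.75 to -0.45), with DESeq2 giving no adjusted p. With the replicate block it was -1.00, and without the replicate block the compartment and interaction calls were the same (6.38 for both states).

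Counts of genes called moved widely: 0 to 83 for pregnancy in lumen (19 in the main count), 0 to 34 in glands (3), 0 to 3 in stroma (0), 0 to 78 for the difference (1), 3 to 614 for glands over lumen in pregnancy (130), 0 to 419 in the cycle (120), 230 to 1009 over both (498), 0 to 526 for stroma over glands (63) and 0 to 474 for stroma over lumen (61). With 19 libraries, chosen as an alternative after seeing the data, the integrin and transcription lists held 0 calls and the enzyme list 1 (CTSB, lower). SPP1 fell under the filter in lumen with the replicate block and without cyclic C, J or M, which gave no value, and the stromal block fit left no residual degrees of freedom.

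Ratios and ranges of SPP1 were also taken without TMM scaling and without ribosomal RNA genes, chosen after seeing the data. Glands stayed above lumen in 8 of 8 biopsies (medians 84.6 and 81.6), and stroma below glands in 4 of 4.

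Depth limits the luminal and stromal levels most, which rest on 4 to 65 SPP1 counts.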
